A study of Mus musculus with 24 samples.

Results

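The 10 core genes of the integrated stress response, Atf4, Atf5, Atf3, Ddit3, Cebpb, Trib3, Chac1, Asns, Sesn2 and Ppp1r15a, were followed through cultured mouse forelimb buds exposed to an organophosphate ester. They were chosen by gene symbol, and all 10 were found among the 25844 genes of the deposited tables, each with 1 identifier. Forelimb buds of CD1 mouse embryos at gestation day 13, kept in culture, received the vehicle DMSO, 1 µM BPDP or 10 µM BPDP for 3 h or for 24 h. BPDP, tert-butylphenyl diphenyl phosphate, serves as a flame retardant and plasticizer. Each of the 6 groups had 4 libraries (24 in all), no group carried an engineered allele, and the BPDP groups differed from DMSO only in the compound. Nothing in the labels says that replicates of a group are different litters or dishes; if they are not, the p-values rest on a spread that is technical.

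The integrated stress response begins when kinases that sense amino acid shortage, misfolded protein in the endoplasmic reticulum, haem shortage or double-stranded RNA phosphorylate the translation initiation factor eIF2. Most protein synthesis then slows, while a few mRNAs with short upstream reading frames, among them those of Atf4 and Atf5, are translated more. The ATF4 protein, paired with a C/EBP partner, raises transcription of genes for amino acid supply and redox balance and of further stress regulators, including a phosphatase subunit that returns eIF2 to its unphosphorylated state. RNA was measured here, and neither ATF4 protein nor eIF2 phosphorylation was.

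Total counts per library ran from 14165947 to 20823058. Levels are given in CPM, a gene's read count scaled by the size of its library, with TMM factors over all 24 libraries, and differences as log2 fold changes from edgeR's quasi-likelihood test, with genes called at a Benjamini-Hochberg adjusted p under 0.05. The limb label was checked on markers: the forelimb gene Tbx5 lay between 189 and 305 CPM in every library, and 3 hindlimb genes (Tbx4, Pitx1 and Hoxc10) summed to 19.5 to 33.3 CPM, most of it Tbx4. Replicate 1 of DMSO at 24 h stood apart from the other 3 libraries of its group in several core genes, and values without it are given where it moves a result.

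ATF4 with a C/EBP partner is known to bind a composite element read as TGATGNAA on either strand. This letter string was searched in RefSeq promoter windows (GRCm38.p6, whose coordinates are those of mm10) from 250 bases before to 50 after each transcript start, and it occurred in 4 of the 10 core genes, against 1219 of 27025 genes (4.51%). The stretches that hold it are shown. All 4 belong to genes called higher with 10 µM at 24 h below, but so do 8 of the 10 core genes. Atf4, Atf5, Ddit3 and Sesn2 were called higher without a match, and a link between the match and the calls was not tested. Capitals mark the match, positions count from the transcript start, and the reverse complement is in capitals where the match lies on the other strand.
Atf3: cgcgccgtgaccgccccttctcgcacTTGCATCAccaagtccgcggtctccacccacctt
Chac1: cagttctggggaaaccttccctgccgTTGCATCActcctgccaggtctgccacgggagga
Asns: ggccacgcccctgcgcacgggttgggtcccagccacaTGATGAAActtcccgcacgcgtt
Trib3: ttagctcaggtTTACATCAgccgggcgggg
The Atf3 stretch is chr1:191183410-191183469 on the minus strand, with the match at -110 to -103. The Chac1 stretch is chr2:119351023-119351082 on the plus strand, with the match at -193 to -186. The Asns stretch is chr6:7693210-7693269 on the minus strand, with the match at -23 to -16. The Trib3 stretch is chr2:152344028-152344057 on the minus strand, and its match lies after the RefSeq start, at 15 to 22. RefSeq starts differ from the deposited gene coordinates used elsewhere in this text. By those coordinates the Trib3 match lies before the gene (152337422 to 152344032) and the Asns match lies inside it (7675169 to 7693254). A cyclic AMP response element, TGACGTCA, which ATF and CREB factors bind, was found in 1 core gene, Ppp1r15a, against 549 of 27025 genes (2.03%).
Ppp1r15a: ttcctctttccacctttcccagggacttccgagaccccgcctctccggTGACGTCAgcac
That stretch is chr7:45526269-45526328 on the minus strand, with the match at -12 to -5. The 2 strings do not overlap in any of these windows, a match is a description of letters and not of binding, and a core gene without a match lacks only these letters in this window.

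After 24 h with 10 µM BPDP, 8 of the 10 core genes were higher than in DMSO and none was lower, where 6.21% of the 15508 genes tested were called (2.77% as higher). Trib3 and Chac1 differed most, by 2.34 and 1.92 on the log2 scale. Atf5, Atf3, Ddit3 and Asns were about as far apart as each other, between 0.98 and 1.09, followed by Sesn2 at 0.79 and Atf4 at 0.64. Cebpb and Ppp1r15a did not pass the test. The median over the 10 was 0.995, against -0.0168 over all genes tested. In the same 8 core genes every 10 µM library lay above every DMSO library, a separation seen in 6.86% of all genes tested. When replicate number entered the fit as a block, 1645 genes were called in place of 963, and the same 8 core genes. With any 1 library left out, 6 to 9 core genes were called, and 491 to 1242 genes in all. Without DMSO replicate 1, 9 core genes were called, and 1107 of 15841 genes.

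**Figure D1:**
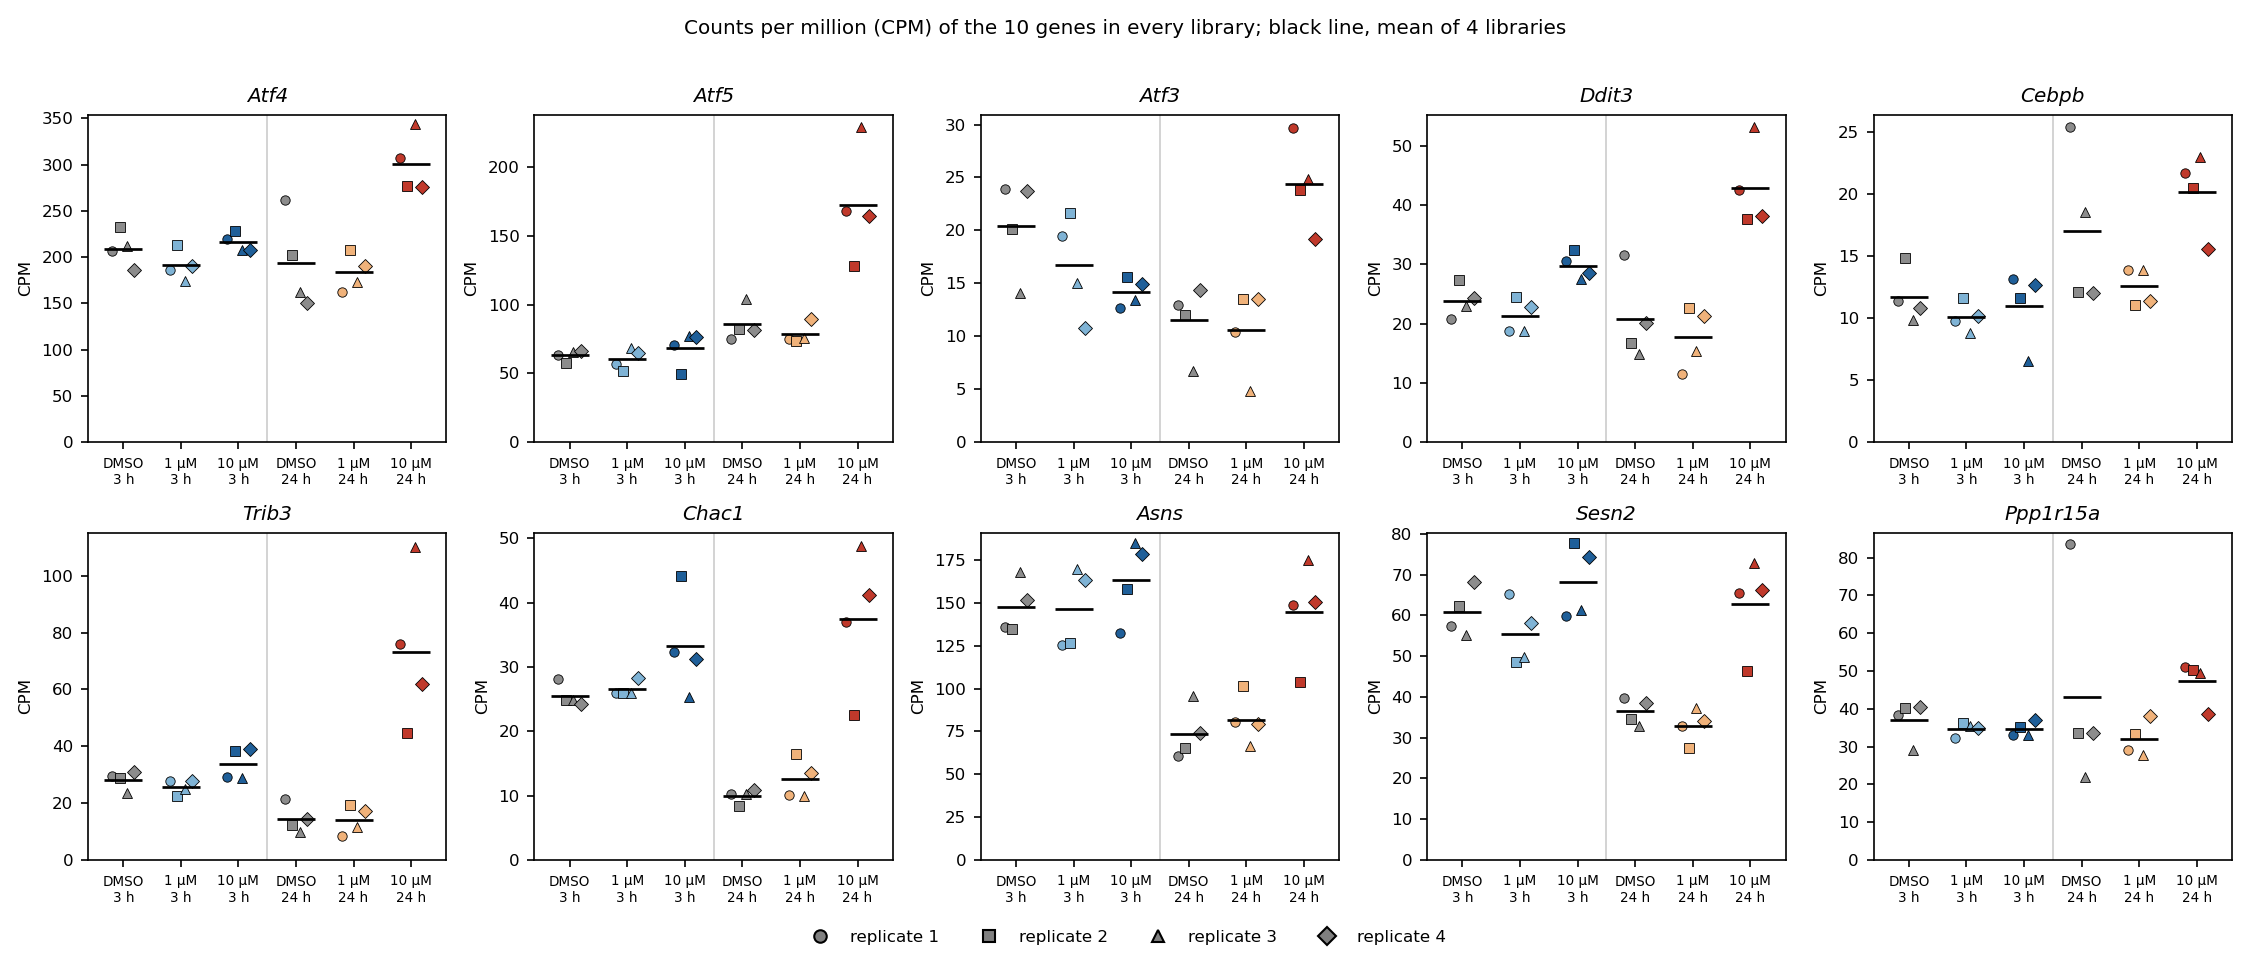
CPM of each core gene in all 24 libraries, with dose groups side by side at 3 h and at 24 h; each symbol is 1 replicate and the bar is the mean of 4. At 24 h the 10 µM libraries of 8 genes, among them Trib3 (44.7 to 110.1 CPM), lie above all DMSO libraries (9.73 to 21.6 CPM), while Cebpb and Ppp1r15a overlap.

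Among the transcription factors, Atf4 (chromosome 15, 80255184 to 80257540) stood at 307, 277, 344 and 276 CPM with 10 µM at 24 h, against 262, 202, 162 and 150 CPM in DMSO (replicates 1 to 4). The groups did not overlap, and the DMSO libraries were the more spread, with replicate 1 close to the 10 µM libraries. The means were 301 ± 32.0 and 194 ± 50.6 CPM (SD, n = 4 each), and the log2 fold change was 0.64 (SE 0.16, adjusted p = 0.0362 by edgeR). This call was lost when any 1 of 7 of the 8 libraries was left out (adjusted p 0.0664 to 0.101); without DMSO replicate 1 the log2 fold change was 0.82 with an adjusted p of 0.00173.

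Atf5, a relative of Atf4 under similar translational control, stood at 168, 128, 229 and 164 CPM with 10 µM at 24 h, against 74.7, 82.6, 104.0 and 81.7 CPM in DMSO. Replicate 3 was the highest library in both groups. The log2 fold change was 1.01 (SE 0.16, adjusted p = 0.00462), and no library left out ended the call. Atf5 (chromosome 7, 44812257 to 44816658) overlaps Nup62 and Il4i1 on the other strand, and the labels do not say whether counting used the strand. Nup62 and Il4i1 were not called (adjusted p = 0.109 and 0.516).

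Atf3, an early stress factor of the ATF and CREB family, stood at 29.7, 23.8, 24.9 and 19.2 CPM with 10 µM at 24 h, against 13.0, 12.1, 6.67 and 14.4 CPM in DMSO. It was the least abundant core gene per length at 24 h with 10 µM, and its groups were still separate. Its log2 fold change was 1.09 (SE 0.21, adjusted p = 0.0103).

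Ddit3 encodes CHOP, a factor tied to cell death under lasting stress. It stood at 42.6, 37.7, 53.2 and 38.2 CPM with 10 µM at 24 h, against 31.6, 16.7, 14.8 and 20.1 CPM in DMSO. DMSO replicate 1 was again the highest of its group, yet below all 10 µM libraries. The log2 fold change was 1.05 (SE 0.22, adjusted p = 0.0183); leaving out DMSO replicate 4, 10 µM replicate 1 or 10 µM replicate 3 brought the adjusted p to 0.057, 0.0565 and 0.0513. Ddit3 (chromosome 10, 127290774 to 127296288) overlaps Mars, which encodes methionyl-tRNA synthetase, on the other strand. Mars was itself called higher with 10 µM at 24 h (log2 fold change 0.50, adjusted p = 0.0316), and its share in the Ddit3 counts was not tested.

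Cebpb encodes C/EBP-beta, a partner of ATF4 on the composite element. Its level was 21.7, 20.4, 22.9 and 15.6 CPM with 10 µM at 24 h, against 25.4, 12.1, 18.6 and 12.0 CPM in DMSO. The groups overlapped, since DMSO replicate 1 was above every 10 µM library. The log2 fold change was 0.25 (SE 0.23, adjusted p = 0.603), and 0.51 (adjusted p = 0.13) without that library. Cebpb overlaps Tmem189 on the other strand, which had 11220 counts over all libraries against 5824 for Cebpb. Tmem189 was not called (log2 fold change 0.09, adjusted p = 0.802 by edgeR), and its share in the Cebpb counts was not tested.

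Among the targets, Trib3 (chromosome 2, 152337422 to 152344032), a pseudokinase that restrains ATF4 and AKT, had the largest difference of the 10. It stood at 75.9, 44.7, 110.1 and 62.1 CPM with 10 µM at 24 h, against 21.6, 12.3, 9.73 and 14.5 CPM in DMSO. The means were 73.2 ± 27.7 and 14.5 ± 5.09 CPM, a 5.06-fold difference in the fit. The 10 µM libraries spread widely, with replicate 3 at 1.81 times the mean of the other 3, but the lowest of them was still above all DMSO libraries. The log2 fold change of 2.34 had an SE of 0.34 (adjusted p = 0.0079).

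Chac1 encodes an enzyme that degrades glutathione. It stood at 36.9, 22.6, 48.8 and 41.2 CPM with 10 µM at 24 h, against 10.2, 8.36, 10.2 and 10.9 CPM in DMSO. The DMSO libraries were tight, with DMSO replicate 1 among the others, and the log2 fold change was 1.92 (SE 0.20, adjusted p = 0.000366), the smallest adjusted p among the 10 in this comparison. Chac1 lies on chromosome 2 at 119351229 to 119354381.

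Asns, asparagine synthetase, stood at 149, 104, 175 and 151 CPM with 10 µM at 24 h, against 60.4, 65.0, 95.4 and 73.8 CPM in DMSO. The gap between the groups was small, with the lowest 10 µM library at 103.9 CPM and the highest DMSO library at 95.4 CPM. The log2 fold change was 0.98 (SE 0.17, adjusted p = 0.00945). Asns lies on chromosome 6 at 7675169 to 7693254.

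Sesn2, a stress-induced inhibitor of the growth kinase complex mTORC1, stood at 65.5, 46.4, 72.8 and 66.3 CPM with 10 µM at 24 h, against 39.6, 34.6, 32.8 and 38.6 CPM in DMSO. Its log2 fold change was 0.79 (SE 0.13, adjusted p = 0.0034). Replicate 2 was the lowest 10 µM library here, as it was for 6 of the 10 core genes.

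Ppp1r15a encodes GADD34, the subunit that directs a phosphatase to eIF2 and so closes the response. Its level was 51.1, 50.3, 49.5 and 38.7 CPM with 10 µM at 24 h, against 83.6, 33.6, 22.1 and 33.7 CPM in DMSO. DMSO replicate 1 was at 2.81 times the mean of the other 3 and above every 10 µM library. With it, the log2 fold change was 0.14 (SE 0.40, adjusted p = 0.896). Without it, the value was 0.68 (SE 0.16, adjusted p = 0.0235), so that 1 library decides this gene's call. Ppp1r15a overlaps Tulp2 on the other strand, which averaged 1.37 CPM with 10 µM and 1.62 CPM in DMSO at 24 h.

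DMSO replicate 1 at 24 h was the highest of its group for 6 core genes. Against the mean of the other 3 DMSO libraries it stood at 1.84 times for Ddit3, 1.79 times for Cebpb, 1.77 times for Trib3 and 1.53 times for Atf4. Chac1, Asns, Atf5 and Atf3 were not highest in it. With 10 µM at 24 h, replicate 3 was the highest library for 8 of the 10 core genes and replicate 2 the lowest for 6. Replicate numbers 1 and 2 tended to deviate together across all genes, and so did 3 and 4. Within replicates 1 and 2 alone, 9 of the 10 core genes had a positive difference between 10 µM and DMSO at 24 h (median 0.833) and none was called, where 6 genes were called in all. Within replicates 3 and 4 alone, all 10 were positive (median 1.04) and 5 were called, namely Atf4, Ddit3, Chac1, Asns and Sesn2. That run called 953 of 15543 genes.

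**Figure D2:**
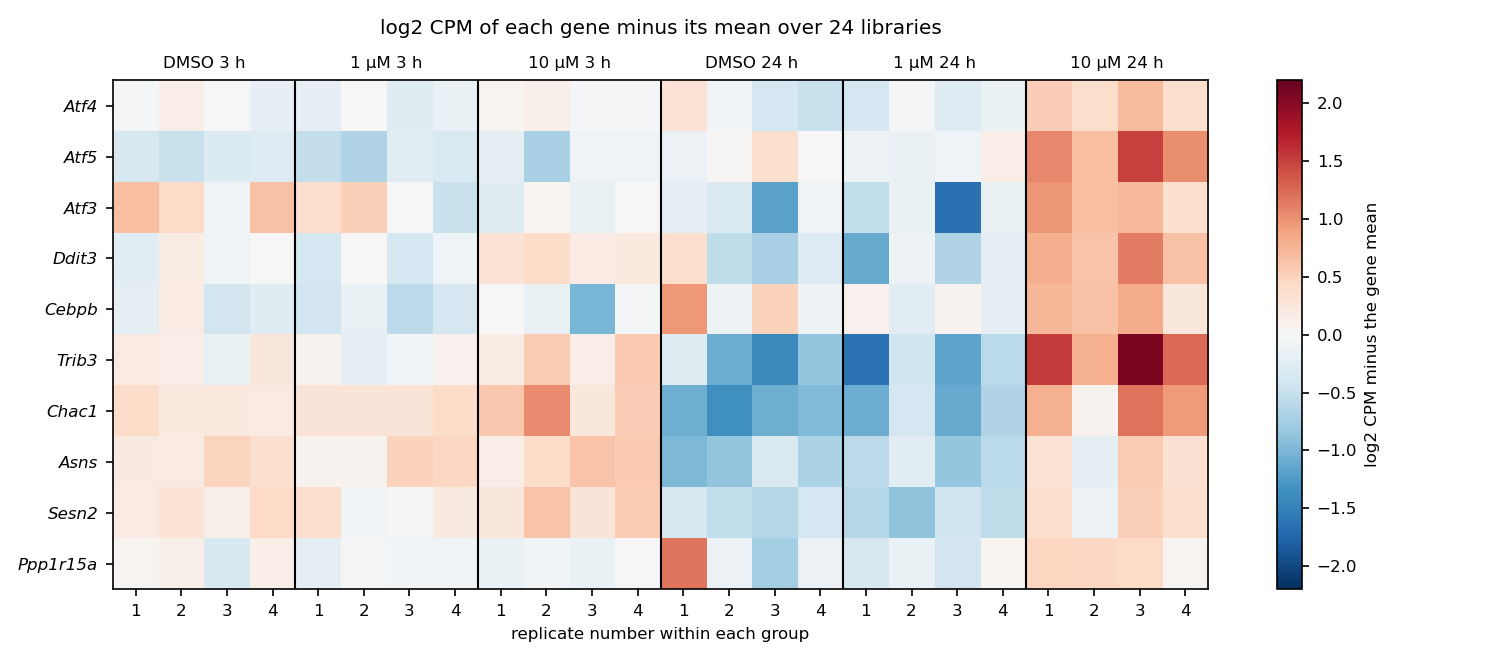
Level of each core gene in each library as log2 CPM minus that gene's mean over the 24 libraries, with libraries grouped by dose and time. At 24 h the 10 µM columns are above the DMSO columns for 8 genes, replicate 1 of DMSO at 24 h stands above its group for Ppp1r15a (83.6 CPM), and Trib3 and Chac1 are low in the DMSO and 1 µM columns at 24 h.

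Markers of other cell types moved with the same contrast. The summed level of 7 macrophage genes was 48.7 to 74.0 CPM with 10 µM at 24 h, against 135 to 196 CPM in DMSO, and 6 of the 7 were called lower. The 5 endothelial genes summed to 133 to 155 CPM with 10 µM, against 206 to 246 CPM in DMSO, with 3 called lower, and the 5 epidermal genes to 692 to 989 CPM, against 1030 to 1820 CPM, with 2 called lower. The 7 limb mesenchyme genes summed to 1170 to 1310 CPM with 10 µM and 1110 to 1270 CPM in DMSO, with 1 called lower, Msx1 (-0.68, adjusted p = 0.0483). The 5 cartilage genes summed to 8700 to 11500 CPM with 10 µM, against 6070 to 9440 CPM in DMSO, with 0 called by edgeR (4 at an unadjusted p under 0.05), 1 by DESeq2 and 3 with the replicate block. Of all 15508 genes tested here, 3225 had an unadjusted p under 0.05 by edgeR, DESeq2 called 1574 and the replicate block 1645. No gene of these lists was at or near 0 in every library of a group. Fewer cells of a type and less RNA per cell cannot be told apart in these bulk samples, and the part of cell makeup in the core genes' differences was not tested.

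The lower dose left the core genes at 24 h without a detectable change. With 1 µM BPDP, 0 of the 10 were called against DMSO by edgeR, 0 had an unadjusted p under 0.05, and DESeq2 called 0; 0.077% of 15578 genes were called. Log2 fold changes ran from -0.44 for Cebpb (SE 0.23) to 0.33 for Chac1 (SE 0.19), with a median of -0.126 and adjusted p from 0.889 to 0.991. Trib3 stood at 8.47, 19.2, 11.7 and 17.2 CPM with 1 µM at 24 h, against 21.6, 12.3, 9.73 and 14.5 CPM in DMSO, and the groups overlap. Chac1 stood at 10.1, 16.5, 9.92 and 13.5 CPM with 1 µM, against 10.2, 8.36, 10.2 and 10.9 CPM in DMSO. Ppp1r15a differed by -0.43 with an SE of 0.41, and its DMSO libraries had an SD of 27.4 CPM. Without DMSO replicate 1, Ppp1r15a was at 0.111, Trib3 at 0.218, Atf4 at 0.103, Ddit3 at 0.0461 and Cebpb at -0.175, with 0 core genes called. A miss of the threshold at this precision does not show equal levels.

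Set directly against each other at 24 h, 10 µM was above 1 µM in every library for all 10 core genes, a separation in this direction seen in 5.07% of 16691 genes. The test over all 24 libraries called 8 of them higher, where it called 3.35% of genes (1.22% as higher). The log2 fold changes were 2.37 for Trib3 (SE 0.27, adjusted p = 3.19e-05), 1.58 for Chac1 (SE 0.19, adjusted p = 9.73e-06), 1.28 for Ddit3 (SE 0.20, adjusted p = 0.000404), 1.22 for Atf3 (SE 0.27, adjusted p = 0.0125) and 1.13 for Atf5 (SE 0.15, adjusted p = 5.6e-05). Sesn2 (0.93), Asns (0.82) and Atf4 (0.71) were also called. Cebpb, at 20.2 ± 3.24 CPM with 10 µM and 12.6 ± 1.52 CPM with 1 µM (SD, n = 4 each), missed the threshold (0.68, adjusted p = 0.0723; 0.0346 by DESeq2 and 0.0465 in a fit that tells replicates 1 and 2 from 3 and 4), as did Ppp1r15a at 47.4 ± 5.86 and 32.1 ± 4.64 CPM (0.56, adjusted p = 0.28). None of these calls changed when any 1 of the 8 libraries was left out. This contrast does not use the DMSO libraries except for the shared estimate of the spread. Over the same contrast the macrophage genes summed to 48.7 to 74.0 CPM with 10 µM, against 129 to 198 CPM with 1 µM (5 of 7 called lower), the endothelial genes to 133 to 155 CPM, against 163 to 219 CPM (2 of 5 called lower), and the epidermal genes to 692 to 989 CPM, against 815 to 1740 CPM (1 of 5 called lower, 2 with the replicate block); their part was not tested.

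At 3 h no core gene was called at either dose. With 10 µM at 3 h, 0 of 10 were called by edgeR, where 0.00644% of 15520 genes were. An unadjusted p under 0.05 was seen in 3 core genes and in 2411 of the 15520 genes. Ddit3 stood at 30.6, 32.4, 27.6 and 28.6 CPM with 10 µM, against 20.8, 27.3, 22.9 and 24.3 CPM in DMSO, the only core gene whose groups did not overlap (4.98% of genes were separate in this direction). Its log2 fold change was 0.33 (SE 0.10, adjusted p = 0.159). Chac1 stood at 32.3, 44.1, 25.3 and 31.3 CPM with 10 µM, against 28.2, 24.9, 24.9 and 24.2 CPM in DMSO (0.39, adjusted p = 0.208).

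Atf3 had the most negative difference of the 10 at 3 h, with 12.6, 15.6, 13.4 and 14.9 CPM with 10 µM against 23.9, 20.1, 14.1 and 23.7 CPM in DMSO. Its log2 fold change of -0.52 (SE 0.16) had an adjusted p of 0.146 by edgeR and of 0.0496 by DESeq2, the sole core gene that DESeq2 called there. Trib3, with 33.8 ± 5.55 CPM and 28.3 ± 3.27 CPM in DMSO (SD, n = 4 each), was at 0.26 (adjusted p = 0.325). The median over the 10 was 0.137, against -0.0048 over all genes tested.

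With 1 µM at 3 h, 0 of 10 core genes were called against DMSO by edgeR or DESeq2, 0 had an unadjusted p under 0.05, and 0% of 15446 genes were called. The log2 fold changes ran from -0.29 for Atf3 to 0.05 for Chac1. Between 10 µM and 1 µM at 3 h, 0 were called by edgeR or DESeq2, where edgeR called 0% of 16691 genes. Ddit3 and Sesn2 had an unadjusted p under 0.05, as did 1385 of the 16691 genes. With the replicate block 3 genes were called, none of them a core gene.

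**Figure D3:**
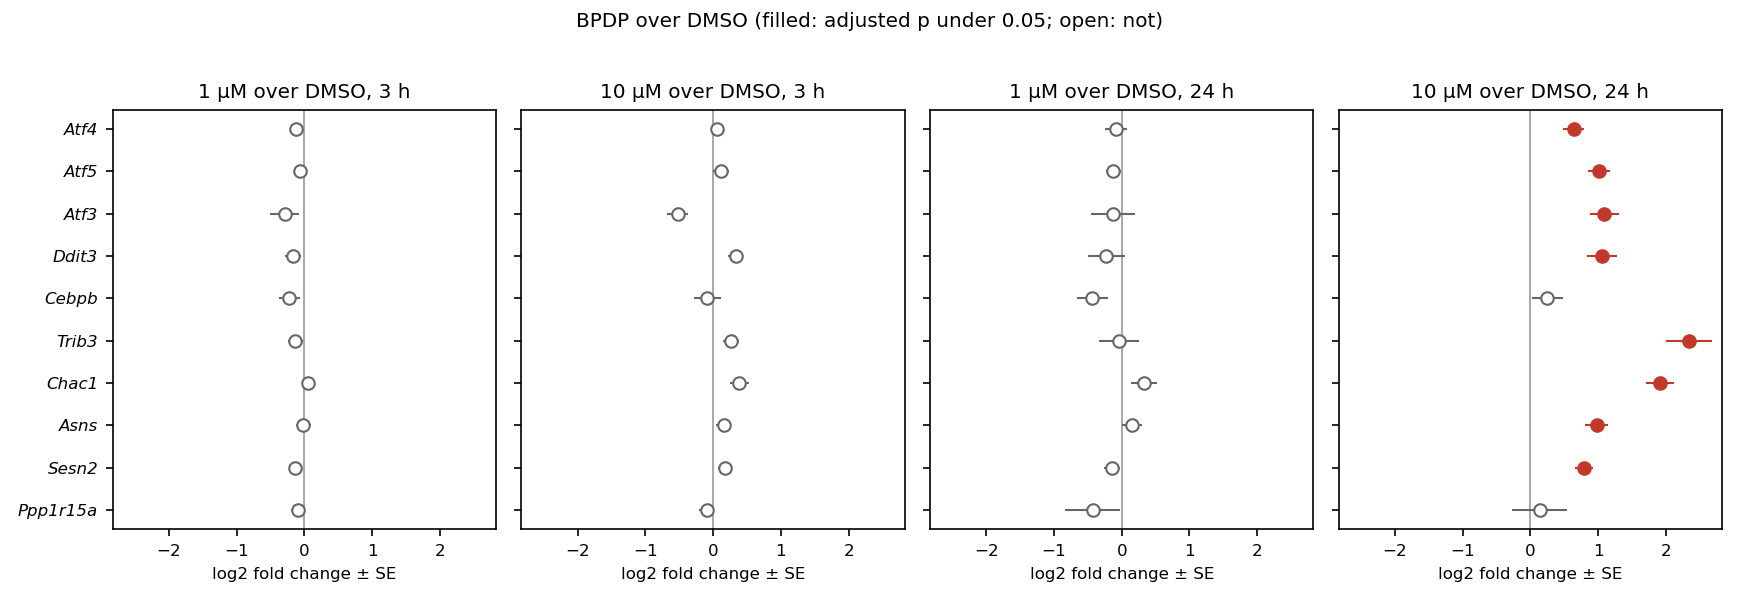
Log2 fold change with its standard error for each core gene, in 1 panel for each dose over DMSO at 3 h and at 24 h; filled points have an adjusted p under 0.05. With 10 µM at 24 h 8 genes are filled, from Atf4 at 0.64 to Trib3 at 2.34, and no gene is filled in the other panels.

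The core genes also differed with time in culture. In DMSO, 5 of the 10 were lower at 24 h than at 3 h and 1 was higher, where 9.55% of 15640 genes were called (4.1% as lower). Chac1 stood at 10.2, 8.36, 10.2 and 10.9 CPM at 24 h, against 28.2, 24.9, 24.9 and 24.2 CPM at 3 h, and had the largest difference of the 10 (log2 fold change -1.36, SE 0.13, adjusted p = 0.00011). The groups were tight and far apart.

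Asns stood at 60.4, 65.0, 95.4 and 73.8 CPM in DMSO at 24 h, against 136, 135, 168 and 152 CPM at 3 h (-0.996, SE 0.13, adjusted p = 0.000585). Trib3 stood at 21.6, 12.3, 9.73 and 14.5 CPM at 24 h, against 29.7, 29.0, 23.6 and 31.0 CPM at 3 h (-0.96, SE 0.21, adjusted p = 0.0115). Sesn2 stood at 39.6, 34.6, 32.8 and 38.6 CPM at 24 h, against 57.3, 62.4, 55.3 and 68.2 CPM at 3 h (-0.73, SE 0.10, adjusted p = 0.000889). In these 4 enzyme and regulator genes the 24 h and 3 h libraries did not overlap (8.59% of genes tested were separate in this direction).

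Atf3 was also called lower over time in DMSO, with 13.0, 12.1, 6.67 and 14.4 CPM at 24 h against 23.9, 20.1, 14.1 and 23.7 CPM at 3 h, and here the groups overlapped. Its log2 fold change of -0.82 (SE 0.23, adjusted p = 0.0421) lost its call without 3 h replicate 1, 2 or 4 or 24 h replicate 1 or 2 (adjusted p 0.0632 to 0.121). It was also just above the threshold without robust estimation, where 5 core genes and 1453 genes in all were called. Atf5 went the other way, with 74.7, 82.6, 104.0 and 81.7 CPM at 24 h against 63.5, 57.8, 65.7 and 66.4 CPM at 3 h (0.44, SE 0.11, adjusted p = 0.0192), and lost its call without 3 h replicate 2 (adjusted p = 0.0663) or 3 (adjusted p = 0.0543). Atf4 (-0.10, adjusted p = 0.745), Ddit3 (-0.19, adjusted p = 0.629), Cebpb (0.54, adjusted p = 0.174) and Ppp1r15a (0.23, adjusted p = 0.787) were not called. Without DMSO 24 h replicate 1, Ddit3 was at -0.468 (adjusted p = 0.0737), Ppp1r15a at -0.314 (adjusted p = 0.296), Atf4 at -0.285 (adjusted p = 0.168), Cebpb at 0.28 (adjusted p = 0.454) and Trib3 at -1.21 (adjusted p = 0.000806).

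Cell type markers moved over the same contrast. The macrophage genes summed to 135 to 196 CPM in DMSO at 24 h, against 71.4 to 93.3 CPM at 3 h, with 6 of 7 called higher, and the cartilage genes to 6070 to 9440 CPM, against 3520 to 4720 CPM, with 4 of 5 called higher. Of the muscle genes 3 of 5 and of the epidermal genes 2 of 5 were called higher. Called lower were 2 of 7 limb mesenchyme, 2 of 4 Schwann cell, 1 of 5 endothelial and 1 of 5 erythroid genes. Over time within 10 µM, 4 of 5 cartilage and 3 of 5 muscle genes were again called higher and 4 of 5 endothelial genes lower, and 2 of 7 macrophage genes were called higher and 4 lower. The part of these markers in the core genes' differences was not tested.

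In 1 µM cultures the 24 h libraries differed from those at 3 h in 4 core genes, all lower, where 19.9% of 16691 genes were called (9.72% as lower). This contrast comes from the fit of all 24 libraries, unlike that of time in DMSO above. In the fit of all 24 libraries, time in DMSO called 2739 of 16691 genes, and 6 core genes (5 lower and 1 higher). These were Chac1 (-1.09, adjusted p = 0.000104), Trib3 (-0.87, adjusted p = 0.0266), Asns (-0.84, adjusted p = 0.000802) and Sesn2 (-0.75, adjusted p = 7.08e-05). The Trib3 call was lost without 1 µM 3 h replicate 1, 3 or 4 or 1 µM 24 h replicate 1 or 3 (adjusted p up to 0.0853) and with no filter on low counts (adjusted p = 0.0521). With the replicate block, Atf5 (higher, adjusted p = 0.00561) and Atf3 (lower, adjusted p = 0.0317) were called too, against 0.0721 and 0.0861 without it, and Atf3 was also called without 1 µM 3 h replicate 4 (adjusted p = 0.0402).

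In 10 µM cultures none of these 4 genes was called lower at 24 h than at 3 h. Chac1 averaged 37.4 ± 11.03 CPM at 24 h and 33.2 ± 7.88 CPM at 3 h (SD, n = 4 each; log2 fold change 0.17, adjusted p = 0.535). Asns averaged 145 ± 29.7 and 163 ± 23.5 CPM (-0.18, adjusted p = 0.4659), and Sesn2 62.7 ± 11.4 and 68.3 ± 9.04 CPM (-0.12, adjusted p = 0.504). Trib3 was higher, at 73.2 ± 27.7 CPM at 24 h and 33.8 ± 5.55 CPM at 3 h (1.11, SE 0.26, adjusted p = 0.00266).

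All 5 transcription factor genes were also higher at 24 h than at 3 h with 10 µM, so that 6 core genes were called, all higher, where 28.1% of genes were called (14% as higher). This share too comes from the fit of all 24 libraries and is not to be set beside the 9.55% for time in DMSO. Atf5 averaged 173 ± 42.0 CPM at 24 h and 68.6 ± 12.8 CPM at 3 h (1.33, SE 0.15, adjusted p = 2.05e-07). Cebpb averaged 20.2 ± 3.24 and 10.99 ± 3.05 CPM (0.87, SE 0.21, adjusted p = 0.00269). Atf4 was at 0.48 (adjusted p = 0.00393), Atf3 at 0.78 (adjusted p = 0.0301) and Ddit3 at 0.53 (adjusted p = 0.0461). The Ddit3 call was lost with the replicate block (adjusted p = 0.0544) and without any 1 of 6 of the 8 libraries (0.0593 to 0.158), and the Atf3 call without any 1 of 6 libraries (0.0501 to 0.0922). With no filter on low counts both missed the threshold (0.0842 for Ddit3 and 0.0634 for Atf3).

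Relative to the 3 h DMSO mean, Asns and Sesn2 with 10 µM at 24 h stood at 0.98 and 1.03 times, and in DMSO at 24 h at 0.499 and 0.599 times. Trib3 stood at 2.59 times with 10 µM at 24 h and 0.514 times in DMSO at 24 h, Atf5 at 2.72 and 1.35 times, and Ddit3 at 1.8 and 0.874 times. In the same order, Cebpb stood at 1.72 and 1.45 times, Chac1 at 1.46 and 0.389 times and Atf4 at 1.44 and 0.928 times. Ppp1r15a stood at 1.28 and 1.17 times and Atf3 at 1.19 and 0.563 times. Asns and Sesn2 at 24 h with 10 µM were thus near their early control level. The other core genes were above it to differing degrees, Cebpb and Ppp1r15a also in DMSO at 24 h. These ratios are a description and were not tested.

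**Figure D4:**
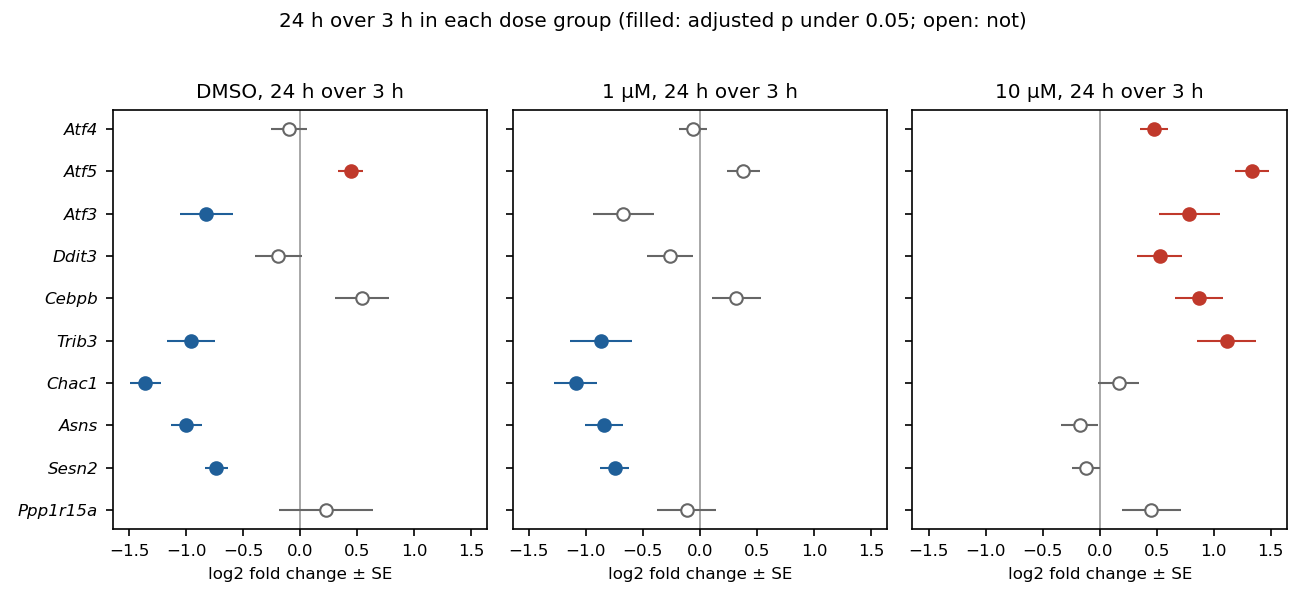
Log2 fold change with its standard error of each core gene for 24 h over 3 h, in 1 panel each for DMSO, 1 µM and 10 µM; filled points have an adjusted p under 0.05. The DMSO panel is from a fit of its 8 libraries and the other panels are from the fit of all 24. Chac1, Asns, Trib3 and Sesn2 lie left of 0 and filled in the DMSO and 1 µM panels, whereas in the 10 µM panel Trib3 lies at 1.11 and the other 3 near 0.

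Whether the 10 µM effect differed between 24 h and 3 h was tested as the difference of both effects in 1 fit of all 24 libraries, which is also the difference between the change over time with 10 µM and that in DMSO. It was called for 4 core genes, all with the larger effect at 24 h, where 2.59% of 16691 genes were called (0.983% as higher). These were Trib3 (2.08, SE 0.37, adjusted p = 0.00222), Atf3 (1.61, SE 0.38, adjusted p = 0.0186), Chac1 (1.53, SE 0.26, adjusted p = 0.000688) and Atf5 (0.90, SE 0.21, adjusted p = 0.0161). Sesn2 (0.62, adjusted p = 0.0559), Asns (0.83, adjusted p = 0.0617), Atf4 (0.59, adjusted p = 0.0682) and Ddit3 (0.72, adjusted p = 0.197) missed the threshold. The first 3 of these were called by DESeq2 (adjusted p = 0.0301, 0.00923 and 0.0338) and in a fit that tells replicates 1 and 2 from 3 and 4 (0.0426, 0.0138 and 0.0261), and Asns without robust estimation (0.0425). Without DMSO 24 h replicate 1, Atf4 (adjusted p = 0.00147), Ddit3 (0.0159), Ppp1r15a (0.0181) and Sesn2 (0.0458) were called as well, for 8 in all. That run called 537 of 16983 genes. Sesn2 was also called without 10 µM 3 h replicate 2 (0.0397) or 10 µM 24 h replicate 2 (0.00848), and Asns without DMSO 24 h replicate 3 (0.018) or 10 µM 24 h replicate 2 (0.0143). For the 1 µM dose, 0 core genes were called by edgeR or DESeq2 (0 at an unadjusted p under 0.05), where 0.0359% of genes were.

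Levels can be compared between genes only per length. As CPM per kilobase of gene length, Atf4 ranked first in all 6 groups and stood at 175 ± 18.6 with 10 µM at 24 h and 113 ± 29.3 in DMSO at 24 h (SD, n = 4 each). Atf5 was at 95.0 ± 23.1 with 10 µM and 47.3 ± 6.96 in DMSO, Asns at 71.7 ± 14.7 and 36.5 ± 7.7, and Ddit3 at 44.3 ± 7.4 and 21.5 ± 7.77. Trib3 stood at 36.1 ± 13.7 with 10 µM, a spread that reaches its neighbours Ddit3 and Chac1 (22.8 ± 6.74), and at 7.18 ± 2.51 in DMSO. The lowest 4 with 10 µM were Sesn2 at 18.1 ± 3.28, Ppp1r15a at 16.9 ± 2.08, Cebpb at 13.4 ± 2.15 and Atf3 at 12.3 ± 2.18. Sesn2 and Ppp1r15a differed by less than their SDs, as did Cebpb and Atf3, while Ppp1r15a and Cebpb were farther apart than that.

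Of 35 other textbook targets of ATF4 and CHOP, 22 were higher and 0 lower with 10 µM against DMSO at 24 h, where 2.77% of all genes were called higher (median 0.632 against -0.0168 over all genes). They include amino acid transporter genes: Slc7a5 averaged 258 ± 62.7 CPM with 10 µM and 110 ± 18.3 CPM in DMSO (1.24, adjusted p = 0.00199), and Slc7a3 26.2 ± 5.99 and 9.33 ± 1.74 CPM (1.496, adjusted p = 0.00068). Stc2, which encodes a secreted stress-induced glycoprotein, was at 1.20 (adjusted p = 0.00475), and Nupr1, a stress-induced chromatin-binding protein, at 1.18 (adjusted p = 0.0158). With 1 µM at 24 h, 0 of the 35 were called by edgeR or DESeq2 (median 0.0297). An unadjusted p under 0.05 was seen in 3 of the 35 and in 917 of 15578 genes. At 3 h with 10 µM, 0 were called by edgeR (median 0.148), and DESeq2 called 4, where it called 482 genes in all. An unadjusted p under 0.05 by edgeR was seen in 14 of the 35 and in 2411 of 15520 genes.

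Over time in DMSO, 16 of these 35 target genes were lower at 24 h and 0 higher, where 4.1% of all genes were called lower (median -0.491 against 0.00923 over all genes). Slc1a4, an amino acid transporter gene, averaged 46.4 ± 5.6 CPM at 24 h and 105 ± 4.83 CPM at 3 h (-1.17, adjusted p = 4.7e-05). Mthfd2, a mitochondrial folate enzyme gene, was at -1.02 (adjusted p = 0.000165), Slc7a5 at -0.95 (adjusted p = 0.000292) and Aldh18a1, needed to make proline, at -0.90 (adjusted p = 0.000519).

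Upstream of ATF4, 18 genes for eIF2 kinases, eIF2 and eIF2B subunits and their regulators were read. With 10 µM at 24 h and the replicate block, 2 of the 18 were called, where 1645 of 15508 genes were. Without the block 1 was higher, where 6.21% of all genes were called. This was Impact, which encodes an inhibitor of the kinase GCN2 (74.5 ± 6.71 CPM with 10 µM and 49.0 ± 8.61 CPM in DMSO; 0.61, SE 0.12, adjusted p = 0.00945), and the list median was 0.0333. None of the 18 was called over time in DMSO by edgeR, with 3 at an unadjusted p under 0.05 and 1 called by DESeq2. Of all 15640 genes tested, 3851 were at that level and DESeq2 called 2204. The smallest adjusted p by edgeR were those of the subunit genes Eif2s2 (-0.37, adjusted p = 0.0759) and Eif2b2 (-0.23, adjusted p = 0.152). RNA of a kinase does not report its activity.

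Of 22 measured genes for other bZIP factors that can pair with or bind like the core factors, 3 were higher with 10 µM at 24 h: Jdp2, a repressor on AP-1 sites (0.73, adjusted p = 0.00062), Nfe2l1, a proteasome gene regulator (0.37, adjusted p = 0.0227), and Jund, an AP-1 subunit (0.31, adjusted p = 0.0441). Batf3 was lower. With the replicate block 6 of the 22 were called. Over time in DMSO 0 were called by edgeR, 4 had an unadjusted p under 0.05 and DESeq2 called 1. Of all 15640 genes, edgeR called 9.55%, 3851 had an unadjusted p under 0.05 and DESeq2 called 2204. The smallest adjusted p by edgeR were those of Atf7 (0.27, adjusted p = 0.096) and Nfe2l1 (0.23, adjusted p = 0.122).

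Genes of other stress responses are read against the 6.21% of all genes called with 10 µM at 24 h. Of 17 genes of the ATF6 and XBP1 arm, 1 was higher with 10 µM at 24 h, Sel1l, a component of protein export from the endoplasmic reticulum for degradation (0.33, adjusted p = 0.0424), with a list median of -0.0243. Of 11 mitochondrial chaperone and protease genes, 1 was higher, the chaperone gene Hspa9 (0.49, adjusted p = 0.0406). Of 12 NRF2 targets, 1 was higher, Hmox1, which degrades haem (0.58, adjusted p = 0.0129). Of 15 p53 targets, 1 was lower, Gtse1 (-0.79, adjusted p = 0.00979). Of 17 immediate early genes, 1 was higher, Klf2 (0.43, adjusted p = 0.0255), with a list median of -0.184. With the replicate block, 4 of the NRF2 targets were called, 2 genes of the ATF6 and XBP1 arm, 2 immediate early genes, 1 mitochondrial gene and 1 p53 target. These counts are read against the 1645 of 15508 genes that the block called.

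Over time in DMSO, where 9.55% of all genes were called, these lists gave other counts. In the p53 list 4 were higher at 24 h, among them Cdkn1a, which encodes the cell cycle inhibitor p21 (1.00, adjusted p = 0.000398), Ccng1 (0.53, adjusted p = 0.00445) and Phlda3 (0.48, adjusted p = 0.0267), and Gtse1 was lower (-0.58, adjusted p = 0.00985). In the immediate early list 3 were higher, among them Klf4 (0.65, adjusted p = 0.00184) and Klf2 (0.48, adjusted p = 0.0227). None was called by edgeR in the ATF6 and XBP1 list (5 at an unadjusted p under 0.05, 4 called by DESeq2), the mitochondrial list (3 at that level, 0 by DESeq2) or the NRF2 list (2 at that level, 1 by DESeq2). Of all 15640 genes tested, 3851 were at that level and DESeq2 called 2204.

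**Figure D5:**
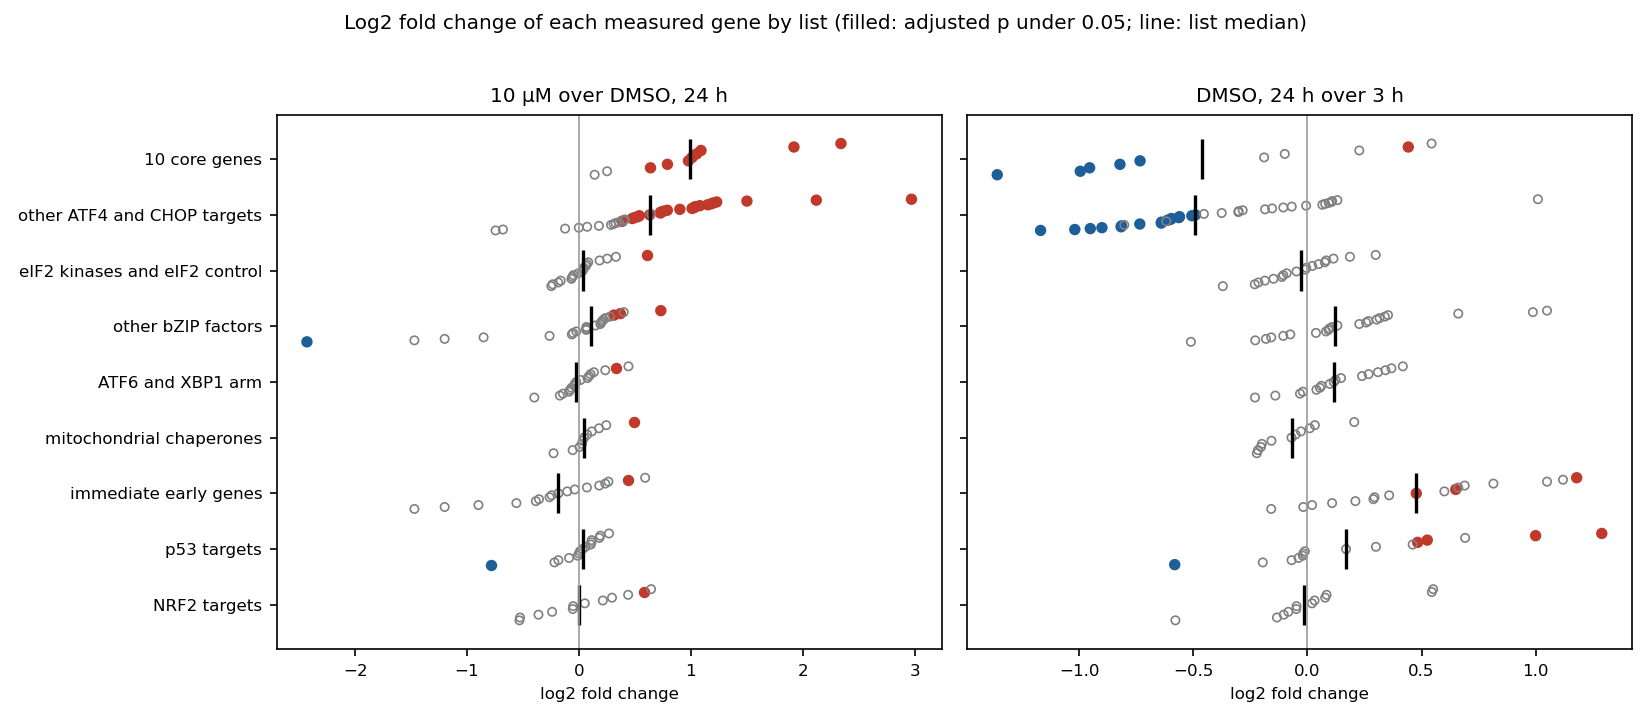
Log2 fold change of every measured gene in 9 lists, for 10 µM over DMSO at 24 h (left) and 24 h over 3 h in DMSO (right); filled points have an adjusted p under 0.05 and the upright line is the list median. The core genes and the 35 other ATF4 and CHOP targets have medians of 0.995 and 0.632 on the left and negative ones on the right.

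Ranked by Pearson r over the 24 libraries between a gene's log2 CPM and the mean z-score of the 10 core genes, among 10302 genes of at least 10 CPM on average, the most alike were Slc3a2 (0.958), Stc2 (0.905), Mta1 (0.867), Wdfy1 (0.862), Slc7a3 (0.859) and Slc6a9 (0.853). The 24 libraries fall into 6 groups and share doses and times, so r is a description. Slc3a2, the heavy chain of amino acid transporters, averaged 119 ± 35.0 CPM in DMSO at 24 h, 105 ± 10.0 CPM with 1 µM and 251 ± 36.3 CPM with 10 µM (SD, n = 4 each). Mta1 and Wdfy1 changed less, Wdfy1 averaging 49.3 ± 3.69 CPM with 10 µM and 38.7 ± 1.61 CPM in DMSO at 24 h. Among the core genes, r with the mean of all 10, each gene included in it, was highest for Trib3 (0.977), Ddit3 (0.94) and Atf4 (0.898) and lowest for Cebpb (0.424), Atf5 (0.552) and Asns (0.597).

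The authors' deposited table for 10 µM over DMSO at 24 h called the same 8 core genes higher at an adjusted p under 0.05, and none lower. Its log2 fold changes were 1.58 for Chac1, 1.37 for Trib3, 0.906 for Atf5, 0.865 for both Ddit3 and Asns and 0.574 for Atf4, each closer to 0 than in the fit above. The authors' deposited table for 24 h over 3 h in DMSO called 5 lower and 1 higher, with Chac1 at -1.27 and Atf5 at 0.419. In the authors' deposited tables the smallest adjusted p of a core gene at 3 h with 10 µM was that of Atf3 (log2 fold change -0.382, adjusted p = 0.0518), and with 1 µM at 24 h that of Cebpb (adjusted p = 0.8).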

How the data were processed

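For the 24 libraries, poly-A RNA of cultured limb buds was captured on poly-T beads and copied with random hexamers, per the labels. Per the submitters' processing notes, CASAVA 1.8, STAR 2.5, HTSeq 0.6.1, DESeq2 (version given as 2) and mm10 were used; whether counting used the strand is not given in the sources used here. Of the columns in the 5 pairwise tables that the authors deposited, 3 kinds were read: raw counts of reads, deposited with no normalization; the authors' log2 fold change; and the p-value, plain and adjusted, that the authors deposited with it. A further 50 columns (FPKM and group means) were not used. Counts that occur in more than 1 of the tables were compared (375696, of which 0 differed) and joined by gene identifier into 25844 genes. All library pairs within a group differed beyond sampling noise (chi-square per degree of freedom 4.7 or more).

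Group and replicate came from the sample labels. Each comparison with DMSO and time in DMSO was fitted on its 8 libraries. The contrasts 10 µM over 1 µM, time within BPDP doses and differences of effects were fitted on all 24 (16691 genes). Fits used the robust quasi-likelihood pipeline of edgeR 4.0.16 under R 4.3.3. Genes were kept by filterByExpr (at least 10 counts, 15 in total) and libraries scaled by TMM. p-values were adjusted by Benjamini-Hochberg over all genes tested, and genes under 0.05 were called. All 10 core genes passed the filter in every fit. Standard errors are the size of the log2 fold change over the square root of F. Alternatives were DESeq2 1.42.0, its size factors, no filter, a non-robust fit, a replicate block, a term for replicates 1 and 2 against 3 and 4, each such pair alone, a 24-library fit, and each library left out. The fits were also run on simulated counts with the same dispersion for all genes and no replicate effect. That run does not cover the spread of these libraries.

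Equal replicate numbers were taken to pair libraries where the correlations of deviations from the group means over genes all exceeded 0.1. This held at 24 h for 10 µM against DMSO (0.139 to 0.308), 1 µM against DMSO (0.128 to 0.287) and 10 µM against 1 µM (0.142 to 0.273), for 10 µM against 1 µM at 3 h (0.106 to 0.229), and for time within 10 µM (0.122 to 0.182) and within 1 µM (0.103 to 0.237). The pairing comes from the data, since the labels give only numbers. The bound does not show that equal numbers are true pairs. A library correlated best with its own number in 1 of 4 cases for 10 µM against 1 µM at 3 h and for time within 10 µM. For time in DMSO, which missed the bound, it did so in 3 of 4.

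The core genes and gene lists were chosen with earlier results of these data known. The lists share some genes, so their counts are not independent. Slc7a11 is in the target and NRF2 lists, Btg2 in the p53 and immediate early lists, and Fos, Fosb, Jun and Junb in the bZIP and immediate early lists. Beyond the core genes, the text names up to 4 called genes of each list with the largest difference and at least 10 CPM in the higher group, up to 2 with the smallest adjusted p where none was called, and the 6 genes most like the core mean. Batf3, the hindlimb markers and Tbx5 were named outside that rule, after their values were seen. Depth limits low genes most, and the standard errors beside the fold changes give the precision.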

Additional observations from a re-analysis of the deposited data

Results flagged for a closer look

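In 4 of 60 sets of 4 libraries (10 genes in 6 groups), 1 library lay farther from the others than Dixon's test allows at the 95% level; chance gives about 1 in 20. These were Atf5 in replicate 4 of 1 µM at 24 h (89.53 CPM, above the other 3), Chac1 in replicate 4 of 1 µM at 3 h (28.32 CPM, above), Chac1 in replicate 1 of DMSO at 3 h (28.18 CPM, above) and Ppp1r15a in replicate 4 of 10 µM at 24 h (38.66 CPM, below). Ppp1r15a in replicate 1 of DMSO at 24 h (83.55 CPM), which decides that gene's call, was not among them by this criterion.

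The 10 µM effect was larger at 24 h than at 3 h by edgeR's test of the difference for 4 core genes. The difference of effects on the log2 scale was 2.077 for Trib3, 1.613 for Atf3, 1.529 for Chac1 and 0.895 for Atf5.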

How the results depend on the processing

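For 10 µM over DMSO at 24 h, 8 core genes were called under each alternative run except replicates 1 and 2 alone (0), replicates 3 and 4 alone (5) and fits with 1 library left out (6 to 9); all genes called were 963, with DESeq2 1574, with the replicate block 1645, in the 24-library fit 1870, within replicates 1 and 2 alone 6 and with 1 library left out 491 to 1242. For 1 µM over DMSO at 24 h, genes called were 12, with DESeq2 60, in the 24-library fit 95, within replicates 1 and 2 alone 0, within 3 and 4 alone 29 and with 1 library left out 7 to 12. For 10 µM over DMSO at 3 h, they were 1, with no filter 142, DESeq2 482 (1 core gene), the block 335, the term for replicates 1 and 2 against 3 and 4 446, replicates 1 and 2 alone 4, 3 and 4 alone 48, the 24-library fit 52 and 1 library left out 1 to 11. For 1 µM at 3 h they were 0, with the block 2, replicates 1 and 2 alone 1, 3 and 4 alone 2 and 1 library left out 0 to 1. For 24 h over 3 h in DMSO they were 1494, replicates 1 and 2 alone 44 (2 core genes), the 24-library fit 2739 and 1 library left out 791 to 1600. For 10 µM over 1 µM they were 559 at 24 h, with DESeq2 847 (9 core genes) and 1 library left out 275 to 593, and 0 at 3 h, with no filter 1, DESeq2 4, the block 3 and that term 3. For the difference of 10 µM effects, 4 core genes became 7 with DESeq2, the block or that term, and 4 to 8 with 1 library left out. All genes called there were 432, with DESeq2 674, the block 617, that term 612 and 1 library left out 332 to 537. For the difference of 1 µM effects, 6 genes became 15 with DESeq2, 11 with that term and 3 to 10 with 1 left out. The causes of these moves were not tested.

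For the difference of 10 µM effects, the replicate block called Sesn2 (adjusted p = 0.03655), Asns (0.01874) and Atf4 (0.03604) too; it changed no other call of a core gene than those given above. In 10 µM and DMSO at 3 h (lowest correlation 0.0802), 1 µM and DMSO at 3 h (0.0951) and the DMSO times (0.0767), equal numbers were not taken as pairs.

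Single core genes changed sign, none of them called there, chiefly where the difference was near 0. Between 10 µM and DMSO at 24 h, Ppp1r15a was at -0.201 within replicates 1 and 2 alone and at -0.0755 to 0.682 with 1 library left out. Between 1 µM and DMSO at 24 h, replicates 3 and 4 alone gave Atf4 0.23, Ddit3 0.0788, Trib3 0.26, Asns -0.213, Sesn2 0.01 and Ppp1r15a 0.247, and leaving out 1 library gave Atf4 -0.189 to 0.103, Atf3 -0.32 to 0.112, Ddit3 -0.371 to 0.0461, Trib3 -0.219 to 0.218 and Ppp1r15a -0.648 to 0.111. At 3 h, replicates 3 and 4 alone gave Ppp1r15a 0.0312 with 10 µM, and with 1 µM Atf5 0.0161, Asns 0.0613 and Ppp1r15a 0.0206, and replicates 1 and 2 alone gave Chac1 -0.0299 with 1 µM. At 3 h, leaving out 1 library gave Cebpb -0.173 to 0.101 with 10 µM, Atf5 -0.138 to 0.00487 and Asns -0.0949 to 0.054 with 1 µM, and Ppp1r15a -0.0409 to 0.0169 for 10 µM over 1 µM. For time in DMSO, replicates 1 and 2 alone gave Atf4 0.0849 and Ddit3 0.00537, replicates 3 and 4 alone gave Ppp1r15a -0.312, and leaving out 1 library gave Atf4 -0.285 to 2.26e-05 and Ppp1r15a -0.314 to 0.446. For the difference of 1 µM effects, leaving out 1 library gave Atf4 -0.056 to 0.227, Atf5 -0.128 to 0.0484, Atf3 -0.0339 to 0.399, Ddit3 -0.203 to 0.206, Cebpb -0.35 to 0.041, Trib3 -0.081 to 0.343, Sesn2 -0.0755 to 0.0792 and Ppp1r15a -0.552 to 0.198.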
